A study of Danio rerio with 28 samples.

Results

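The 6 pituitary hormone genes smtla, smtlb, prl, gh1, pomca and cga were followed across cadmium and PCB126 exposures in zebrafish larvae. They were taken from the deposited table of raw counts by exact gene symbol, 1 row each, out of 38318 genes. The rule by symbol used no measured value, but the members were chosen with earlier results of these data known. RNA was sequenced from whole larvae of the AB wild-type strain. These were reared in E3, a dilute salt medium, and exposed between days 1 and 5 after fertilization. The 28 libraries form 7 groups of 4. They are a control group, cadmium (Cd, a toxic metal) at 2.4, 12 and 24 ug/L, and PCB126 (a polychlorinated biphenyl that binds the aryl hydrocarbon receptor) at 0.08, 0.4 and 0.8 nM. No vehicle and no separate control for PCB126 are named in the labels, and the control columns carry the Cd prefix, so PCB126 and any difference in handling between the 2 series cannot be told apart. The labels do not say whether libraries of the same group had separate clutches or dishes as their source, so p-values measure only the spread between these samples.

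The pituitary secretes peptide hormones from separate endocrine cell types, each under control of the hypothalamus. Growth hormone, prolactin and the fish-specific somatolactins belong to a single hormone family and act through cytokine receptors that signal by JAK2 and STAT5. Pro-opiomelanocortin is the precursor of adrenocorticotropic hormone and melanocyte-stimulating hormone, and the glycoprotein alpha subunit pairs with separate beta subunits to form thyrotropin and the gonadotropins. In whole larvae these transcripts come from a very small organ. In such bulk samples, fewer cells of a type and less RNA per cell cannot be told apart.

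Libraries held 11893345 to 20770004 counts, with a median of 14251921.5. The fourth control library (control replicate 4) and replicate 3 of Cd 2.4 ug/L diverged from the rest. Their TMM factors, which scale library totals, were 0.646 and 0.687 against 0.993 to 1.08 in the other 26 libraries. Ribosomal protein genes took 12.6% and 12.95% of their counts, against 5.86% to 6.85% elsewhere. Levels below are CPM, counts relative to the TMM-scaled library total, unless TPM, the authors' length-corrected unit without TMM, is named. Dividing by a TMM factor below 1 raises the CPM values of the pair relative to their TPM values. Results that rest on either library are also given without both, as 26 libraries. Calls are those of edgeR's quasi-likelihood test with an adjusted p under 0.05 over all 25393 genes tested, and errors of fold changes are standard errors (SE).

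All 6 transcripts were detected, at very different levels. On the TPM scale, which allows genes to be compared, gh1 was the most abundant, with a mean over the 28 libraries of 35.2 TPM and 8562 counts in all. The pro-opiomelanocortin gene pomca had a mean of 5.17 TPM (1262 counts) and the prolactin gene prl one of 4.36 TPM (1230 counts). The somatolactin beta gene smtlb reached 1.65 TPM (289 counts), the alpha subunit gene cga 1.37 TPM (488 counts) and the somatolactin alpha gene smtla 0.715 TPM (101 counts). Counts per library ran from 176 to 600 for gh1, but only from 2 to 28 for smtlb and from 0 to 14 for smtla. Of the 6 genes, 5 had enough counts to be tested, and smtla did not. Only gh1 had more than 100 reads in every library.

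**Figure D1:**
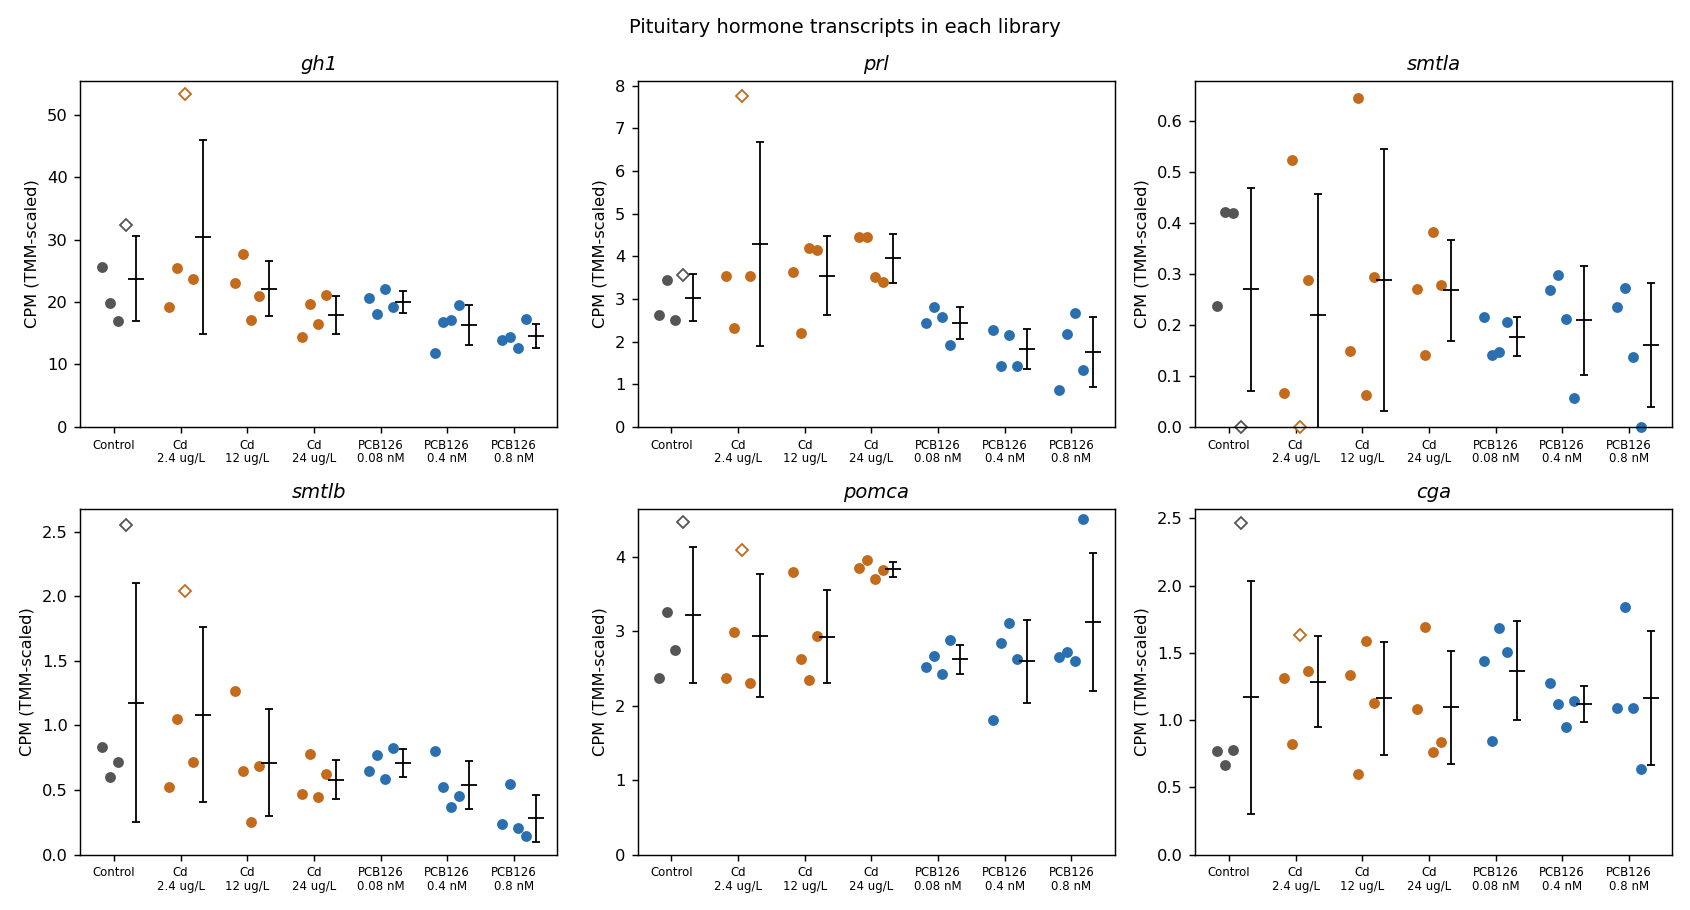
TMM-scaled CPM (vertical axes, from 0) of the 6 hormone genes in each of the 28 libraries, by group. Points are libraries, open diamonds are control replicate 4 and Cd 2.4 ug/L replicate 3, and dashes with bars are the mean and SD of each group. The PCB126 0.8 nM group has the lowest mean for gh1, prl, smtla and smtlb.

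The 6 comparisons with control share the same 4 control libraries. No member was called at any Cd dose or at PCB126 0.08 or 0.4 nM, by edgeR, and 1 of 5, smtlb, was called at PCB126 0.8 nM, where it was lower. The share of all genes called was 0.0394% at Cd 2.4 ug/L, 0.173% at Cd 12 ug/L and 0.922% at Cd 24 ug/L. It was 0.386%, 1% and 3.49% at PCB126 0.08, 0.4 and 0.8 nM, and 1.47% of all genes were called lower at 0.8 nM. DESeq2 also called no member in those 5 comparisons. At an unadjusted p under 0.05, edgeR counted 3 of 5 members at PCB126 0.4 nM and 0 in the other 4. Of all 25393 genes it counted 2823 at PCB126 0.4 nM and from 1380 to 3257 in the other 4. With 5 genes tested, 1 call is too few to set against these shares. The median log2 fold change of the 5 members at 0.8 nM was -0.70, beside -0.01 for all genes. Markers of some other tissues were also below control there, with medians of -0.64 for lens, -0.56 for skeletal muscle and -0.48 for exocrine pancreas. In each of these lists 0 of 16 tested genes were above 0. Medians were -0.48 for photoreceptors (3 of 17 above 0), -0.12 for liver (7 of 17) and 0.002 for neuron markers (10 of 20). In 26 libraries the medians were -0.51 for the members, with 0 calls, -0.12 for lens, -0.07 for skeletal muscle and -0.05 for exocrine pancreas. They were -0.30 for photoreceptors, -0.04 for neuron markers and 0.38 for liver. The part of tissue make-up in the members' values was not tested.

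Growth hormone is made by somatotrophs and drives body growth in part through insulin-like growth factor. Its gene gh1 (ENSDARG00000038185, chromosome 3, 22327738 to 22332913, plus strand, GRCz11) read 25.6, 19.8, 17.0 and 32.4 CPM in control replicates 1 to 4. With PCB126 at 0.8 nM it read 13.98, 14.4, 12.6 and 17.3 CPM. Control replicate 3 lay inside the exposed range, so the groups overlapped by that library. The means were 23.7 ± 6.81 and 14.6 ± 1.95 CPM (SD, n = 4). The log2 fold change was -0.70 ± 0.25, or 1.62-fold lower, and did not pass the test (edgeR, adjusted p = 0.125), with -0.51 ± 0.17 in 26 libraries (adjusted p = 0.0632). On the TPM scale control replicate 4 was the lowest control at 29.9 TPM, and the exposed libraries ran from 23.4 to 30.2 TPM.

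Between the doses, mean gh1 was 20.03 ± 1.76 CPM at 0.08 nM and 16.4 ± 3.26 CPM at 0.4 nM (SD, n = 4). All 4 libraries at 0.8 nM were below all 4 at 0.08 nM, whose lowest value was 18.1 CPM (exact permutation test, two-sided, p = 0.0286, the smallest that 4 against 4 allows). Such tests on CPM were run for every member in each comparison of 2 groups and were not adjusted. The share of all genes whose groups did not overlap was not computed. The edgeR test of that difference, -0.46 ± 0.25, did not pass (adjusted p = 0.581; 1.02% of all genes were called). A linear slope on PCB126 dose over 16 libraries was -0.81 ± 0.21 log2 per nM (edgeR, adjusted p = 0.0516; 2.27% of all genes were called, 0.845% lower). Without the divergent library, control replicate 4, the slope was -0.66 and passed (adjusted p = 0.0239; 6.28% of all genes were called without the pair). The slope passed in only 4 of the 16 fits that left out 1 library. Its edgeR adjusted p reached 0.150 without PCB126 0.8 nM replicate 3.

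In the Cd series, gh1 was highest by CPM in the divergent library Cd 2.4 ug/L replicate 3, at 53.4 CPM. The other 3 libraries of that group were between 19.3 and 25.4 CPM. On the TPM scale Cd 12 ug/L replicate 2 was higher, at 51.8 TPM against 50.6 TPM in Cd 2.4 ug/L replicate 3. At Cd 24 ug/L gh1 ran from 14.5 to 21.1 CPM, overlapping the control range of 17.0 to 32.4 CPM. The difference from control there was -0.40 ± 0.24 (edgeR, adjusted p = 0.500). Between 24 and 2.4 ug/L it was -0.76 ± 0.24 (adjusted p = 0.149; 0.52% of all genes were called), and -0.34 ± 0.17 in 26 libraries. The Cd slope gave no member call (0.344% of all genes were called).

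Prolactin, the hormone of lactotrophs, regulates ion and water balance in fish. Its gene prl (ENSDARG00000037946, chromosome 3, 32341917 to 32345900, plus strand) read 2.62, 3.44, 2.51 and 3.56 CPM in the control libraries. At PCB126 0.4 nM it read 2.28, 1.42, 2.16 and 1.43 CPM, all below the lowest control (exact permutation test, two-sided, unadjusted p = 0.0286). At 0.8 nM the values were 0.859, 2.18, 2.67 and 1.34 CPM, with replicate 3 inside the control range. The log2 fold changes were -0.72 ± 0.33 at 0.4 nM (edgeR, adjusted p = 0.416) and -0.77 ± 0.33 at 0.8 nM (adjusted p = 0.220), and neither passed. On the TPM scale the 0.4 nM group was no longer apart from control, because control replicate 4 read 2.81 TPM, the lowest control value.

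The means of prl in the 3 Cd groups were above the control mean, without a call, while of the 12 Cd libraries 6 lay above every control and 2 below every control. At Cd 24 ug/L the libraries read 4.46, 4.45, 3.51 and 3.41 CPM, and the fold change from control was 0.39 ± 0.32 on the log2 scale (edgeR, adjusted p = 0.630). Set directly against PCB126 0.8 nM, all 4 Cd 24 ug/L libraries were higher (exact permutation test, two-sided, p = 0.0286). The difference was 1.16 ± 0.33, or 2.23-fold, with a 95% interval from 0.48 to 1.83. It missed the threshold with all libraries (edgeR, adjusted p = 0.0806; 1.74% of all genes were called). It passed in 26 libraries at the same size (1.16 ± 0.27, adjusted p = 0.00743; 6.57% of all genes were called), although neither removed library belongs to these 2 groups. It also passed in DESeq2 (adjusted p = 0.0225). In all, 5 of 17 alternatives passed. Of the 8 fits that left out 1 library only 1 passed, and the edgeR adjusted p reached 0.319 without PCB126 0.8 nM replicate 1. The groups did not overlap in TPM either, with 5.31 to 7.09 TPM against 1.45 to 4.22 TPM.

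Over all doses, prl ran from 2.21 to 7.77 CPM in the 12 Cd libraries (median 3.60) and from 0.859 to 2.81 CPM in the 12 PCB126 libraries (median 2.17). Of the Cd libraries, 10 of 12 lay above every PCB126 library. Of the PCB126 libraries, 9 of 12 lay below every control in CPM. Fewer did so on the TPM scale, where control replicate 4 was the lowest control at 2.81 TPM. All PCB126 0.08 nM libraries were then above it, the lowest at 2.85 TPM. No other member separated the chemicals to this extent: 5 of 12 Cd libraries exceeded every PCB126 library for gh1, 3 for each of the somatolactin genes, and 0 for pomca and for cga. The pooling over doses was chosen after the values were seen and was not tested.

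**Figure D2:**
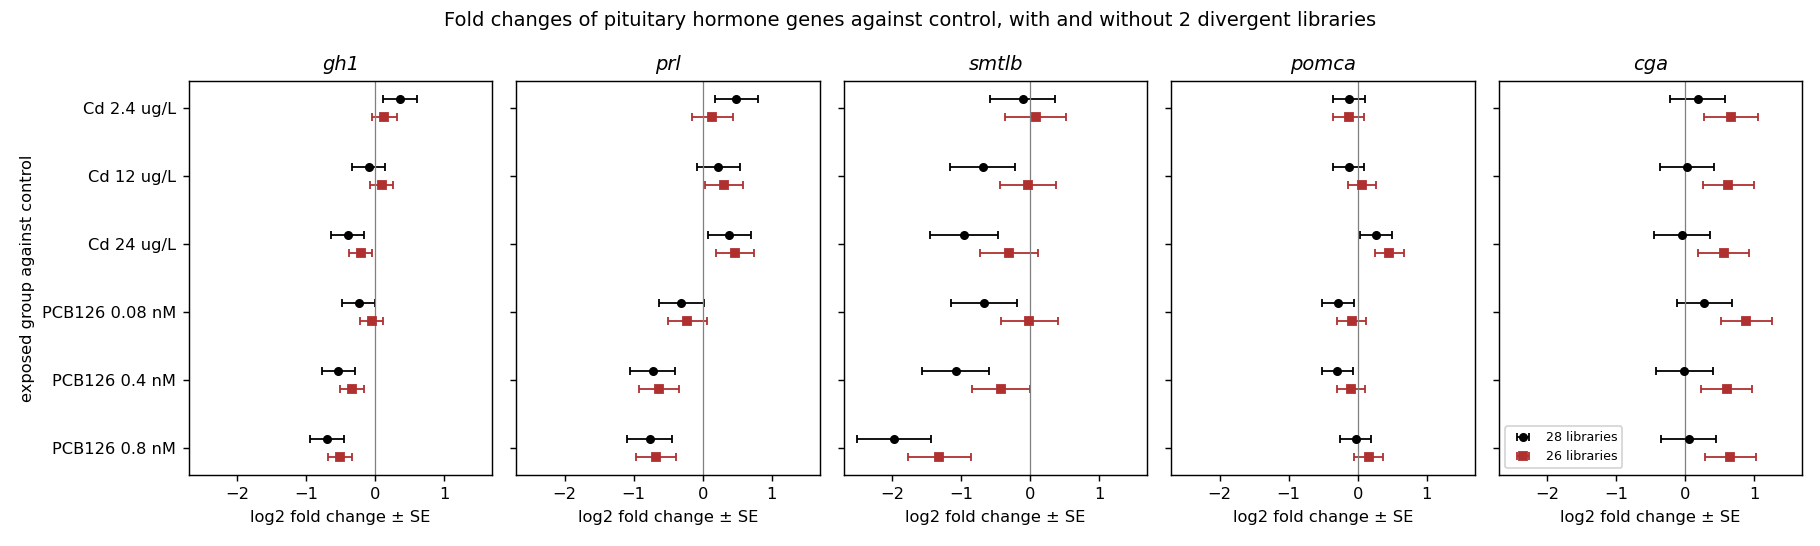
Log2 fold change against control (horizontal axes, bars are SE) of the 5 tested hormone genes in each exposed group, from edgeR with all 28 libraries (black circles) and with 26 libraries (red squares). For smtlb and cga the 26-library values lie to the right of the 28-library values in every group, and smtlb at PCB126 0.8 nM moves from -1.97 to -1.32.

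Somatolactins are made in the pars intermedia of fish and are known for roles in pigment cells and in energy and acid-base balance. The beta gene smtlb (ENSDARG00000017251, chromosome 10, 39314578 to 39321367, minus strand) had 14, 10, 12 and 28 counts in control replicates 1 to 4, or 0.832, 0.603, 0.718 and 2.56 CPM. At PCB126 0.8 nM it had 3, 8, 3 and 2 counts, or 0.234, 0.545, 0.205 and 0.141 CPM. All exposed libraries were below all controls, and control replicate 4 was the highest control. Summed over 4 libraries there were 16 counts (exact Poisson 95% interval 9.15 to 25.98) against 64 (49.3 to 81.7). These intervals cover counting error only.

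The log2 fold change of smtlb at 0.8 nM was -1.97 ± 0.54, or 3.92-fold lower (edgeR, adjusted p = 0.0397; lower in 4 of 4 libraries). Its 95% interval ran from -3.08 to -0.86. The slope on dose was -2.24 ± 0.58 log2 per nM (adjusted p = 0.0491). Without control replicate 4 the fold change was -1.32 and was not called (adjusted p = 0.212). In 26 libraries it was -1.32 ± 0.46 (edgeR, adjusted p = 0.0792; 8.73% of all genes were called), with a slope of -1.64 ± 0.45 (adjusted p = 0.0353). The slope was called in only 4 of the 16 fits that left out 1 library, with an edgeR adjusted p of up to 0.138 without PCB126 0.8 nM replicate 3, and was not called without the filter on low counts (adjusted p = 0.0624). The call at 0.8 nM was also lost without replicate 1, 3 or 4 of that group (adjusted p = 0.102, 0.120 and 0.117). The groups stayed apart on the TPM scale, at 0.344 to 1.43 TPM against 1.61 to 3.29 TPM.

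At the other PCB126 doses smtlb had 40 summed counts at 0.08 nM and 34 at 0.4 nM, with means of 0.707 ± 0.109 and 0.538 ± 0.188 CPM (SD, n = 4). All 4 libraries at 0.8 nM were below those at 0.08 nM (exact permutation test, two-sided, p = 0.0286). The edgeR difference of -1.30 ± 0.56 did not pass (adjusted p = 0.403). At Cd 24 ug/L the mean was 0.581 ± 0.153 CPM. The difference from control was -0.96 ± 0.49 with all libraries and -0.30 ± 0.42 in 26 (edgeR, adjusted p = 0.410 and 0.776). Between Cd 24 ug/L and PCB126 0.8 nM it was 1.01 ± 0.57 (adjusted p = 0.743), so smtlb was not shown to differ between the chemicals at their top doses.

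The alpha gene smtla (ENSDARG00000038191, chromosome 18, 48168755 to 48178125, plus strand) was too low to test. Control libraries had 4, 7, 7 and 0 counts, and PCB126 0.8 nM libraries 3, 4, 2 and 0 counts. Group sums were 18 in control, 12, 23 and 16 with rising Cd dose, and 10, 13 and 9 with rising PCB126 dose. The Poisson interval of the lowest sum, 4.12 to 17.1 counts, reached into that of the control, 10.7 to 28.4 counts. A count of 0 occurred in control replicate 4, Cd 2.4 ug/L replicate 3 and PCB126 0.8 nM replicate 4, which allows levels of up to 0.274, 0.307 and 0.211 CPM. With the filter on low counts removed, the log2 fold change at 0.8 nM was -0.80 ± 0.80 (edgeR, adjusted p = 0.687).

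Pro-opiomelanocortin is made in corticotrophs and melanotrophs and stands at the head of the stress and pigment axes. Its gene pomca (ENSDARG00000043135, chromosome 17, 33226955 to 33230039, plus strand) read 2.38, 3.26, 2.75 and 4.47 CPM in the control libraries. At Cd 24 ug/L it read 3.85, 3.96, 3.70 and 3.82 CPM, above 3 controls and below control replicate 4. The log2 fold change was 0.26 ± 0.23 (edgeR, adjusted p = 0.656), and 0.46 ± 0.21 in 26 libraries (adjusted p = 0.236). On the TPM scale, where control replicate 4 was the lowest control, all 4 Cd 24 ug/L libraries (6.75 to 7.01 TPM) lay above all 4 controls (4.03 to 6.09 TPM). All genes also shifted upward on that scale. Their median difference in log2(TPM + 1) was 0.15, beside a median log2 fold change of -0.02 in edgeR. The share of all genes whose groups did not overlap in TPM was not computed. At PCB126 0.8 nM 3 libraries read 2.60 to 2.72 CPM and replicate 4 read 4.51 CPM. The fold change there, -0.03 ± 0.23, turned positive in 26 libraries (0.16 ± 0.21) and with library totals in place of TMM (0.13), and none of these was called.

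The glycoprotein alpha subunit gene cga (ENSDARG00000040479, chromosome 17, 49439219 to 49443399, minus strand) showed group means from 1.09 to 1.37 CPM. With all 28 libraries this was the narrowest span of the 6 genes in relative terms, at 1.25-fold. Control libraries read 0.773, 0.664, 0.778 and 2.46 CPM, so a single library set the control mean of 1.17 ± 0.865 CPM (SD, n = 4). With control replicate 4 left out the control mean was 0.738 CPM. In 26 libraries the means thus ran from 0.738 CPM in control to 1.37 CPM at PCB126 0.08 nM. That span was wider in relative terms than the one of pomca, 2.55 to 3.83 CPM, and no longer the narrowest. In 26 libraries all 6 exposed groups had positive log2 fold changes, from 0.56 ± 0.37 at Cd 24 ug/L to 0.89 ± 0.36 at PCB126 0.08 nM, and none was called (edgeR, lowest adjusted p = 0.142). With all 28 libraries the fold changes ran from -0.05 at Cd 24 ug/L to 0.28 at PCB126 0.08 nM, and the value at Cd 24 ug/L turned to 0.18 with library totals in place of TMM. The beta subunits that complete these hormones were scarcer. The thyrotropin beta gene tshba had 147 counts over the 28 libraries, the luteinizing hormone beta gene lhb 23 and the follicle-stimulating hormone beta gene fshb 10.

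Group means of CPM over all 28 libraries were ordered for each gene. For prl the order was Cd 2.4, 24 and 12 ug/L, control, then PCB126 0.08, 0.4 and 0.8 nM. For gh1 it was Cd 2.4 ug/L, control, Cd 12 ug/L, PCB126 0.08 nM, Cd 24 ug/L, PCB126 0.4 nM and PCB126 0.8 nM. The order of smtlb differed from that of gh1 only in its first 2 places, with control ahead of Cd 2.4 ug/L. For smtla, Cd 12 ug/L was highest, followed by control, Cd 24 ug/L, Cd 2.4 ug/L, PCB126 0.4, 0.08 and 0.8 nM. For pomca, Cd 24 ug/L was highest and PCB126 0.4 nM lowest, and for cga PCB126 0.08 nM was highest and Cd 24 ug/L lowest. In none of the 6 genes did any of the 6 pairs of neighbouring groups in these orders separate without overlap. In 26 libraries the order changed for every gene. For prl it then began with Cd 24, 12 and 2.4 ug/L. Control moved below Cd 12 ug/L for gh1 and below Cd 2.4 ug/L for smtlb. It became highest for smtla and lowest for cga. Cd 2.4 ug/L became lowest for pomca. PCB126 0.8 nM stayed lowest for prl, gh1, smtlb and smtla.

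Counts of a hormone gene relative to gh1 within the same library do not depend on library scaling. These ratios were chosen after the values were seen. Against every 100 gh1 counts, pomca had 9.28 to 16.5 counts in the control libraries, 18.1 to 26.6 at Cd 24 ug/L and 19.0 to 26.1 at PCB126 0.8 nM. Neither top-dose group overlapped control (exact permutation test, two-sided, p = 0.0286 each). Adjusted over the 24 ratio comparisons, p was 0.343, a level that the design could not bring below the threshold with so few separated groups. Such a ratio also rises when gh1 is lower. Mean gh1 was 23.7 CPM in control, 17.9 at Cd 24 ug/L and 14.6 at PCB126 0.8 nM. Mean pomca was 3.21, 3.83 and 3.12 CPM in the same groups. Ratios to gh1 were not computed for genes outside the members. For prl, control had 10.2 to 17.4 counts per 100 of gh1 and Cd 24 ug/L 16.1 to 30.8 (exact permutation test, p = 0.0571). The prl ratio at PCB126 0.8 nM spread from 6.15 to 21.1, across the whole control range. The smtlb ratio was 0.816 to 3.79 at PCB126 0.8 nM against 3.05 to 7.89 in control, and the groups overlapped (exact permutation test, p = 0.0857).

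**Figure D3:**
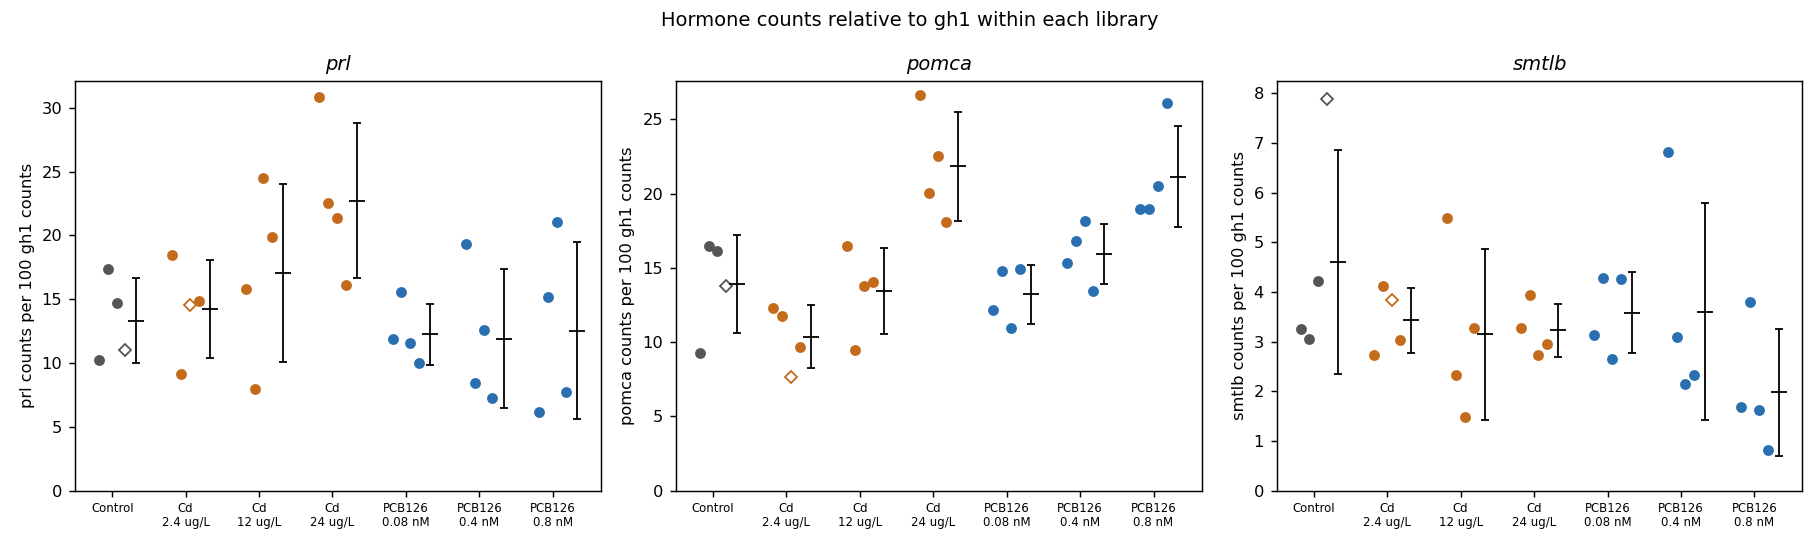
Counts of prl, pomca and smtlb per 100 counts of gh1 in the same library (vertical axes, from 0), by group. Points are libraries, open diamonds are the 2 divergent libraries, and dashes with bars are the mean and SD of each group. For pomca the Cd 24 ug/L and PCB126 0.8 nM libraries lie above all 4 controls.

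Across the 28 libraries the members varied together to different degrees, given here as descriptions of log2 CPM that share library scaling. Pearson's r was highest between smtlb and gh1, at 0.718, and 0.529 in 26 libraries. Between prl and gh1, which lie on the same chromosome, it was 0.473, and 0.209 in 26 libraries. Between pomca and cga, both on chromosome 17, it was -0.012 and -0.306. With group means taken out of all 28 libraries, r was highest between gh1 and pomca, at 0.652. Between smtlb and gh1 it was then 0.552. Such values were not computed in 26 libraries, so the part of the divergent libraries in them was not tested. With group means kept, r between gh1 and pomca was 0.356, and 0.082 in 26 libraries. Among 13775 candidate genes the most alike in pattern to gh1 were utp4 (r = 0.885 in 28 libraries, 0.777 in 26), cyp2ad3 (0.865 and 0.691) and clk4a (0.856 and 0.733). For smtlb they were ntpcr (0.852 and 0.725), ip6k2a (0.847 and 0.707) and myl7 (0.843 and 0.717). For prl they were btg2 (0.818 and 0.800), fosab (0.815 and 0.768) and fhl2a (0.803 and 0.748). For pomca they were heatr3 (0.720 and 0.641), dennd2da (0.708 and 0.606) and tppp3 (0.702 and 0.622), and for cga tmem263 (0.792 and 0.754), ccng1 (0.706 and 0.660) and n4bp2l2 (0.705 and 0.640).

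Other genes of the pituitary axis were read from lists of known roles. Of 5 further hormone genes in the table, only prl2, a second prolactin gene, had enough counts to be tested, and it was not called in any comparison it entered. Its log2 fold change at PCB126 0.8 nM was 0.59 ± 0.46 (edgeR, adjusted p = 0.541), opposite in sign to that of prl. The transcription factor gene pou1f1, which in vertebrates specifies somatotrophs and lactotrophs, was listed at 0 in all 28 libraries, as was the hypothalamic gene ghrh. Such zeros held for 1211 of 25431 protein-coding genes, and with gh1 and prl detected they were not read as absence of the cell type. Other markers of the pituitary placode and its lineages, such as lhx4, pitx1 and tbx19, had 6229, 6501 and 207 counts, although all of these are also used outside the pituitary.

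Of 18 tested pituitary transcription factor genes, 2 fell and 0 rose at PCB126 0.8 nM, beside 1.47% of all genes called lower and 2.02% higher. The 2 were six3b, a forebrain and eye field factor, at -0.59 ± 0.13 (edgeR, adjusted p = 0.0114), and insm1a, a neuroendocrine differentiation factor, at -0.42 ± 0.08 (adjusted p = 0.00118). The six3b level was 31.6 to 47.6 CPM in control and 22.9 to 25.9 CPM at 0.8 nM, and insm1a read 64.0 to 72.3 and 47.3 to 55.5 CPM. In 26 libraries 3 of 19 fell, beside 8.73% of all genes called in either direction. The list's median log2 fold change was -0.07, beside -0.01 for all genes. Both genes are also active in the retina, and 7 of 17 tested photoreceptor genes fell in the same comparison, with summed levels of 6283 to 6874 CPM against 8438 to 15627 CPM in control and none of them at 0. In 26 libraries 10 of 17 fell and 1 rose, beside the same 8.73% of all genes. At Cd 24 ug/L edgeR called 0 of 18 transcription factor genes in 28 libraries. In 26 libraries 2 of 19 fell there, beside 5.08% of all genes. They were six3b at -0.31 ± 0.06 (edgeR, adjusted p = 0.0036) and insm1a at -0.22 ± 0.06 (adjusted p = 0.0275). Of 17 photoreceptor genes, 2 were called higher and 0 lower at Cd 24 ug/L in 26 libraries. Most of that list lay below control there, with 6 of 17 above 0 and a median log2 fold change of -0.10. In 28 libraries 2 of 17 were above 0, with a median of -0.25. The part of the retina in the values of six3b and insm1a was not tested. Among 10 genes of prohormone processing and secretory granules, 2 rose and 0 fell at 0.8 nM, beside 2.02% of all genes called higher. The 2 were the amidating enzyme gene pam (0.29 ± 0.08, adjusted p = 0.0427) and the secretogranin gene scg2b (0.23 ± 0.06, adjusted p = 0.0283). At Cd 24 ug/L scg2b rose by 0.24 ± 0.06 (adjusted p = 0.0479). Both genes were also called in 26 libraries. Of 19 genes of hypothalamic factors and 14 of their pituitary receptors, 0 were called in any comparison with control by edgeR or DESeq2. At PCB126 0.8 nM 3 and 2 of them had an unadjusted p under 0.05, beside 4447 of all 25393 genes. In 26 libraries 1 hypothalamic gene was called at each of Cd 24 ug/L, PCB126 0.08 nM and PCB126 0.4 nM, and 1 and 2 receptor genes at the first and second of these, beside 5.08%, 7.83% and 3.57% of all genes. Neuron markers, summed over 20 genes, were at 3616 to 3921 CPM at 0.8 nM and 3824 to 4025 CPM in control.

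Genes downstream of growth hormone and prolactin receptors moved in both directions. Of 20 tested at PCB126 0.8 nM, 5 rose and 2 fell, beside 2.02% of all genes called higher and 1.47% lower. The list's median log2 fold change was 0.15. In 26 libraries 6 rose and 3 fell, beside 8.73% of all genes called in either direction. The binding protein genes igfbp1b and igfbp1a, whose products restrain insulin-like growth factors, rose by 1.34 ± 0.33 and 0.94 ± 0.19 (edgeR, adjusted p = 0.0213 and 0.00436). In the 4 exposed libraries igfbp1b read 12.9, 31.7, 43.3 and 12.1 CPM and igfbp1a 37.1, 71.3, 77.9 and 46.4 CPM, so replicates 2 and 3 were the highest for both. Controls ran from 8.45 to 12.4 CPM for igfbp1b and from 25.6 to 34.3 CPM for igfbp1a. The suppressor genes socs1a and cish, which damp cytokine receptor signalling, were called lower at -0.86 ± 0.24 and -0.73 ± 0.19 (adjusted p = 0.0461 and 0.0298).

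The gene cish, a STAT5 target in mammals, read 26.9, 26.2, 27.3 and 45.4 CPM in control and 18.4, 18.3, 19.8 and 19.2 CPM at PCB126 0.8 nM. All exposed libraries were below all controls, and control replicate 4 was again the highest. In 26 libraries the fall was smaller and still called (-0.50 ± 0.13; edgeR, adjusted p = 0.0147). At PCB126 0.4 nM socs1a and cish were called lower at -1.14 ± 0.24 and -0.94 ± 0.19 (adjusted p = 0.0135 and 0.00896). They were 2 of 20, beside 0.366% of all genes called lower. In 26 libraries 1 rose and 2 fell, beside 3.57% of all genes called in either direction. At PCB126 0.08 nM 0 of 20 were called in 28 libraries. In 26 libraries 1 rose there (igf2a) and 3 fell (stat5a, socs3a and stat5b), beside 7.83% of all genes. The growth factor gene igf1 itself was at -0.05 at 0.8 nM and was not called, while igf2a rose by 0.51 ± 0.13 (adjusted p = 0.0232). The remaining 2 genes called at 0.8 nM in 28 libraries, igfbp5b and jak2b, rose by 0.33 and 0.25 and are named after their values were seen.

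At Cd 24 ug/L the same list had 1 gene higher and 1 lower of 20, beside 0.922% of all genes called in either direction. They were igfbp1a at 0.82 ± 0.19 (edgeR, adjusted p = 0.0352) and socs1a at -1.07 ± 0.24 (adjusted p = 0.0275), beside a list median of 0.00. In 26 libraries 2 were higher and 1 lower, with igfbp1b added at 1.25 ± 0.34 (edgeR, adjusted p = 0.0297), beside 5.08% of all genes. DESeq2 called 4 in 28 libraries, beside 2.36% of all genes called by DESeq2. Against PCB126 0.8 nM the only gene of the list called by edgeR in 28 libraries was igf2a, which was lower in Cd (-0.81 ± 0.13, adjusted p = 0.000339). In 28 libraries DESeq2 called 2 genes, beside 2.58% of all genes called by DESeq2. In 26 libraries edgeR called 5, all lower in Cd (igf2a, igfbp2b, igfbp5b, jak2b and socs3b), beside 6.57% of all genes. The gene igf2a read 13.2 to 14.5 CPM at Cd 24 ug/L, 15.4 to 19.4 CPM in control and 21.5 to 30.3 CPM at PCB126 0.8 nM. Neither igfbp1a nor socs1a was shown to differ between the 2 top doses (log2 differences -0.12 ± 0.19 and -0.21 ± 0.24).

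**Figure D4:**
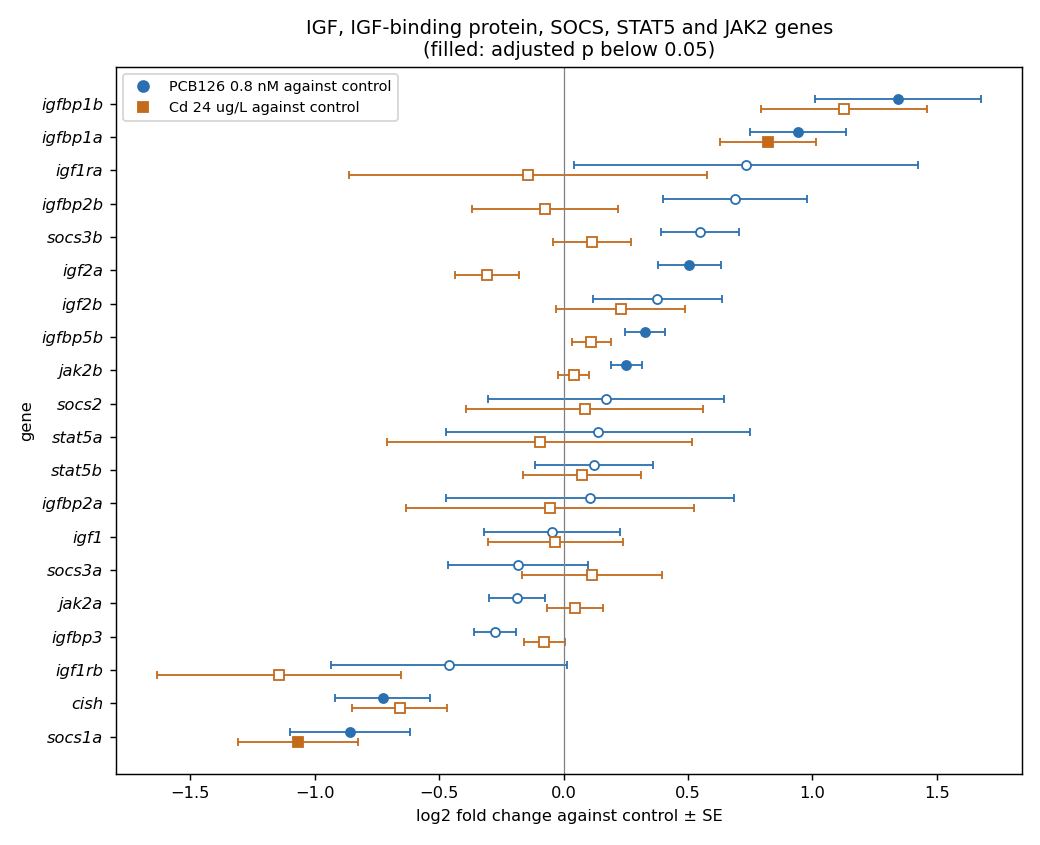
Log2 fold change against control (horizontal axis, bars are SE) of 20 genes downstream of growth hormone and prolactin receptors (vertical axis), at PCB126 0.8 nM (blue circles) and Cd 24 ug/L (orange squares). Filled symbols passed the test: 7 genes at PCB126 0.8 nM and 2 at Cd 24 ug/L.

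Among receptors of pituitary hormones, 9 genes were tested and 0 were called in any comparison with control by edgeR. At PCB126 0.8 nM 2 had an unadjusted p under 0.05, beside 4447 of all 25393 genes. DESeq2 called 1 there, beside 5.91% of all genes. The slope on PCB126 dose was called for 1 of these receptors, beside 0.845% of all genes called lower. It was the growth hormone receptor gene ghrb, at -0.54 ± 0.13 log2 per nM (edgeR, adjusted p = 0.0379). Its level was 66.1 to 70.6 CPM in control and 46.7 to 56.2 CPM at 0.8 nM, without overlap.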

How the data were processed

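The deposited raw counts per gene were made by the authors with tools that, per the submitters' processing notes, include HISAT2 2.0.5 and featureCounts 1.5.0-p3, on build GRCz11. The annotation release is not given in the sources used here. Per the labels, the libraries were poly-A selected, and second-strand synthesis is described for directional as well as non-directional libraries, so strandedness is unknown here and reads of overlapping antisense genes could be mixed. The deposited TPM values were made by the authors from counts and gene length. Gene length, in bases, is given per the file headers and was used for no result beyond TPM.

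Counts were analysed in R 4.3.3 with edgeR 4.0.16 (filterByExpr by group with a minimum count of 10, TMM, estimateDisp, glmQLFit, glmQLFTest, two-sided), with a mean per group, 21 residual degrees of freedom and Benjamini-Hochberg adjustment over all genes tested. Slopes on dose used the 16 libraries of 1 chemical and control. CPM is counts over TMM-scaled totals, and correlations used log2 CPM with a prior count of 2. Exact permutation tests used CPM, without adjustment, or log2 ratios. The procedure was tested on simulated data, with changes placed only in genes of higher counts than smtlb and with no divergent library. That test does not cover the recovery of changes at counts as low as those of smtlb. Alternatives were DESeq2 1.42.0, limma 3.58.1 on log2(TPM + 1), other filters and scalings, replicate number as a block, only the groups compared, and leaving libraries out. Library totals without TMM factors were added after seeing the data. The members and lists were chosen with earlier results of these data known. The members were always named. Of other lists at most 4 called genes per comparison were named, by size of change, and per tested member the 3 genes with the highest r among those whose log2 CPM averaged 1 or more.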

Additional observations from a re-analysis of the deposited data

Results flagged for a closer look

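In a group of 4 libraries a value was singled out when its gap to the nearest other library, divided by the range of the group, exceeded the 95% critical value of Dixon's test. This held in 3 of the 42 gene and group combinations of the 6 hormone genes, and chance flags about 1 in 20. The smtlb level in control replicate 4 was 2.56 CPM, against 0.603 to 0.832 CPM in the other controls. The cga level in the same library was 2.46 CPM, against 0.664 to 0.778 CPM in the others. Both CPM values are raised by the low TMM factor of that library. On the TPM scale it read 3.29 TPM for smtlb, against 1.61 to 2.23 TPM in the other controls. For cga it read 1.52 TPM, against 0.847 to 0.988 TPM. The rule was not applied to TPM. The pomca level in PCB126 0.8 nM replicate 4 was 4.51 CPM, against 2.60 to 2.72 CPM in the other libraries of its group. A further result was singled out because the exposures differed by a test of the difference itself: igf2a was lower at Cd 24 ug/L than at PCB126 0.8 nM, by a log2 fold change of -0.81 (edgeR, adjusted p = 0.000339).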

How the results depend on the processing

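The number of members called changed in 4 comparisons. Where a member fell below a filter this is said, and other causes were not tested. At PCB126 0.8 nM against control, smtlb gave 1 call, and there were 0 without a filter, in 26 libraries, with only the groups compared (where smtlb fell below the filter) and with the replicate block (adjusted p = 0.0661 in edgeR). Leaving out 1 library gave 0 to 1. For the slope on PCB126 dose, 1 call became 2, smtlb and gh1, with DESeq2 size factors, in DESeq2 and in 26 libraries. It became 0 without a filter, and with a filter at a mean of 10 counts, where smtlb fell below the filter and was not tested. With the replicate block the 1 call passed from smtlb (edgeR, adjusted p = 0.0796) to gh1 (0.0499). Leaving out 1 library gave 0 to 2. Between Cd 24 ug/L and PCB126 0.8 nM, 0 calls became 1, prl, in library totals without TMM factors, in 26 libraries, in limma on log2(TPM + 1) and in DESeq2, and 0 to 1 when leaving out 1 library. Between PCB126 0.8 and 0.08 nM, 0 became 1, gh1, with only the groups compared. In the other 7 comparisons no alternative gave a member call. Scaling by library totals moved the median log2 fold change of all genes by up to 0.14. At PCB126 0.8 nM the move was 0.12, and smtlb was still called. Libraries of the same replicate number were not seen to be more alike. Their median r was -0.00802, beside 0.00314 for different numbers, and 8 of 28 correlated best with their own number. This check included the 2 divergent libraries, so it cannot exclude that replicate numbers pair the samples. Across all genes, calls at PCB126 0.8 nM ran from 111 with only the groups compared to 2237 in 26 libraries, beside 887, and those at Cd 24 ug/L from 19 to 1300, beside 234. Depth limits smtla and smtlb most.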
